A study of Mus musculus with 2 samples.

Results

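Genes that cells switch on within minutes of a stimulus were followed in T cells from the pancreatic islets of NOD mice, a strain that develops autoimmune diabetes. The 10 genes are the AP-1 subunits *Fos*, *Fosb*, *Jun*, *Junb* and *Jund* and the immediate early genes *Egr1*, *Dusp1*, *Ier2*, *Zfp36* and *Btg2*. They were taken by symbol, and all 10 were found among the 27998 genes of the files. The wild-type library came from NOD.*Foxp3*-EGFP mice and the knockout library from NOD.*Tnfrsf9*-/-.*Foxp3*-EGFP mice, which lack CD137 (encoded by *Tnfrsf9*) in every cell type. Each was 1 droplet library made from a pool of 6 females aged 9 to 10 wk, and all mice carried the EGFP reporter of *Foxp3* expression. Islet CD8 T cells and GFP+ regulatory T cells (Tregs) had been sorted and were sequenced together in each library, so their ratio carries no information about the islets. With 1 library per genotype, the differences between mice cannot be separated from the genotype and no test was possible.

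AP-1 is a family of dimers in which a Fos or Jun protein pairs with another through a leucine zipper and binds DNA at short sites. Signals from the antigen receptor and from stress reach these genes through kinases of the MAPK family and through transcription factors already present in the cell, so their transcripts appear without new protein synthesis and decay quickly. In T cells they take part in the first response to antigen. The same genes are also known to be induced while tissue is digested and cells are sorted.

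Stretches of promoter are given because these letters are where such factors bind. Promoter windows of 300 bases were found in RefSeq (GRCm38.p6) for 8 of the 10 members, including *Fosb* and *Jund*. The 190 bases from 170 before the RefSeq start of transcription to 20 after it are shown for 6 of them, read 5′ to 3′ on the gene's strand. They lie at chr12:85473720-85473909, plus strand (*Fos*), chr4:95052203-95052392, minus strand (*Jun*), chr8:84978729-84978918, minus strand (*Junb*), chr17:26508453-26508642, minus strand (*Dusp1*), chr7:28379209-28379398, minus strand (*Zfp36*) and chr1:134079136-134079325, minus strand (*Btg2*). Capitals mark the cAMP response element TGACGTCA, its 5-base part TGACG, the related site TGACATCA, the letters TATAAA of a TATA box, and the CArG box that serum response factor binds.
Fos: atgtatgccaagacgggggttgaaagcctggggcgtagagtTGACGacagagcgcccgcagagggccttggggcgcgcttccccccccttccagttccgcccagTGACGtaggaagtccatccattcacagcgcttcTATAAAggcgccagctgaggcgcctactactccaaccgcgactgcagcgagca
Jun: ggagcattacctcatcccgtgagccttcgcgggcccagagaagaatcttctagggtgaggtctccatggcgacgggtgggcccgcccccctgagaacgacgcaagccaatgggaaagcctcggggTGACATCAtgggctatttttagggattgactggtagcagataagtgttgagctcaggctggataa
Junb: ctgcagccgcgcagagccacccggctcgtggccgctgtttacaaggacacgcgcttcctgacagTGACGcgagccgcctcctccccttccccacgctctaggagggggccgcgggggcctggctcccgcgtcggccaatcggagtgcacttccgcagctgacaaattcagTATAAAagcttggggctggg
Dusp1: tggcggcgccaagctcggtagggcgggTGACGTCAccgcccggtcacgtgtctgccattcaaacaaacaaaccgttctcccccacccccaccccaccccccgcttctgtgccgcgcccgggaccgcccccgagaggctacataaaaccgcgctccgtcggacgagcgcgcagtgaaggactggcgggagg
Zfp36: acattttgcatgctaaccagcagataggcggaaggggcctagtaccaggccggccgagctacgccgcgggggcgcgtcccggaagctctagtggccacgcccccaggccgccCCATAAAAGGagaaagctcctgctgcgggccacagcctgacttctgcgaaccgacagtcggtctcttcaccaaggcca
Btg2: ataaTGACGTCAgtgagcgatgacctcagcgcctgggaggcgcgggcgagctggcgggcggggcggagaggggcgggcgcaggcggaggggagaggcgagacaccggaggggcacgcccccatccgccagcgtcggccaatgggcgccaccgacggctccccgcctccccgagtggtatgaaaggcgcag

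Letters were matched on both strands of the whole 300-base windows, and TGACG lies inside TGACGTCA. TGACG was found in 5 of the 8 members (*Fos*, *Fosb*, *Junb*, *Dusp1* and *Btg2*) and in 20.8% of all 32851 promoter windows. The full TGACGTCA was found in *Dusp1*, 143 bases before the start, and in *Btg2*, 166 bases before it, and in 1.79% of all windows. *Jun* alone held TGACATCA (3.62% of all windows), 45 bases before its start, and *Zfp36* alone held a CArG box (1.63%), 58 bases before its start. TATAAA was found in *Fos*, 33 bases before the start, and in *Junb*, where it begins on the RefSeq start itself, 30 bases upstream of the GENCODE start (13.6% of all windows). Neither letter string of AP-1's own preferred site, TGACTCA or TGAGTCA, was found in any of the 8 windows, against 5.20% of all. The motifs were chosen after a first look at the windows, and a match is a description of the letters only. Bases upstream of the windows and members without a window were not searched. A missing match therefore does not show that a gene lacks the site.

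The wild-type library held 2804 barcodes and the knockout 2991, with 19904506 and 19639995 UMIs, molecular barcodes that let each captured transcript be counted once. After cells outside 200 to 5000 genes or above 20% mitochondrial UMIs were removed, 891 wild-type and 1200 knockout cells were CD8 T cells (at least 2 UMIs of *Cd8a* and *Cd8b1*, none of *Cd4* and *Foxp3*), and 1552 and 1444 were Tregs (no *Cd8a* or *Cd8b1*, at least 1 UMI of *Cd4*, *Foxp3*, *Il2ra* or *Ikzf2*). In each library 271 kept cells met neither rule, of which 206 and 178 held UMIs of both lineages, and no doublet caller was run. *Cd3e* was detected in 92.1 to 97.3% of the cells of each pool, while *Foxp3* itself was detected in 13.2% and 19.5% of the Tregs, which therefore rest mostly on the other 3 genes. Levels are given as UMIs per 1000000 UMIs of all genes in the same class of cells (CPM). *Tnfrsf9*, the gene targeted in the knockout, was at 336.7 CPM in wild-type and 110 CPM in knockout Tregs, and 106 and 32.0 CPM in CD8 T cells. Its transcripts were thus still counted in the knockout, in 29.6% of the Tregs and 11.8% of the CD8 T cells. CD137 protein was not measured here. The libraries shared 16 barcodes, and the median UMIs per cell were 6076 and 5275 in CD8 T cells and 4302 and 4308.5 in Tregs.

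In CD8 T cells every member was higher in the knockout than in the wild type, whereas in Tregs the members divided. The CD8 direction turned under 3 other ways of pooling the cells for *Jund* and under 1 for *Egr1*, given with those genes. Summed over the 10, the level in CD8 T cells was 1313 CPM in the wild type and 2087 CPM in the knockout. In Tregs the sums were 1819 and 1959 CPM. The wild-type CD8 T cells were thus the low pool, and the other 3 lay between 1819 and 2087 CPM. The median log2 ratio of knockout over wild type was 0.67 over the members in CD8 T cells and 0.092 in Tregs, beside 0.036 and 0.038 over the 11083 and 11428 genes that had 20 or more UMIs. In CD8 T cells 7 of the 10 members were at least 1.5-fold higher in the knockout, against 13.7% of all genes, and none was 1.5-fold lower, against 8.2%. In Tregs no member was 1.5-fold higher or lower, against 6.93% and 3.62% of all genes.

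The count of 7 depended on which CD8 T cells were pooled and how. It was 0 when every cell had equal weight, 0 without the cycling cells, and 3 when each cell was thinned to 2000 UMIs. The median log2 ratio under these settings was 0.49, 0.44 and 0.54, still above that of all genes. More of the knockout CD8 T cells carried the transcripts of resting cells (60.8% against 31.6%) and fewer those of cycling cells (8.08% against 20.4%), and with cells compared inside these states the median was 0.41 and the count 1.

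**Figure D1:**
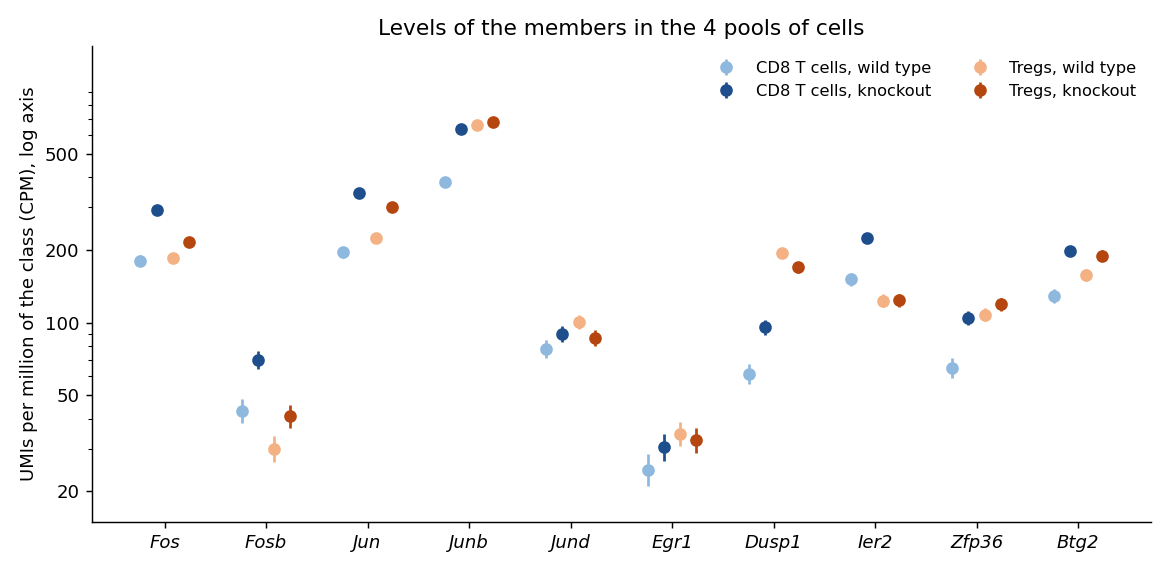
Level of each member in each of the 4 pools of cells, in CPM (log axis), with exact 95% Poisson intervals as vertical lines that cover counting error only. Levels are to be compared within a gene: for 8 of the 10 genes the wild-type CD8 T cells are the lowest pool, the exceptions being *Fosb* and *Ier2*.

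*Fos* (chr12:85473890-85477273, plus strand), the founding Fos-family subunit, pairs with Jun proteins and is among the first genes transcribed after a signal (gene positions are those of the GENCODE annotation of GRCm38, which is mm10, whose gene starts differ from the RefSeq starts of the promoter windows by 53656 bases for *Dusp1*, 1210 for *Jund*, 1025 for *Zfp36* and at most 35 for the other 5). Its level was 181 CPM in wild-type and 294 CPM in knockout CD8 T cells, and 186 and 216 CPM in wild-type and knockout Tregs. The 2 wild-type pools were level with each other, and the knockout CD8 T cells stood above the other 3. The log2 ratio of knockout over wild type was 0.70 in CD8 T cells, with an exact 95% interval of 0.60 to 0.80 which, like every interval given here, reflects counting error and says nothing of how mice vary. In Tregs it was 0.22 (0.12 to 0.32).

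*Fosb* (chr7:19302696-19310051, minus strand), a second Fos-family subunit, was the member whose pooled lineages moved most alike. Its level was 43.1 CPM in wild-type and 69.9 CPM in knockout CD8 T cells, and 30.0 and 41.0 CPM in Tregs. CD8 T cells stood above Tregs in both libraries. The log2 ratios were 0.70 (0.49 to 0.91) in CD8 T cells and 0.45 (0.21 to 0.69) in Tregs, and their difference of 0.25 had an interval that included 0 (-0.056 to 0.56). Without cycling cells the difference was -0.015, the only setting in which that of *Fosb* was below 0. Compared inside cell states, its ratios were 0.76 in CD8 T cells and 0.48 in Tregs, further apart than those of *Jun* (0.53 and 0.45). The states differed in this. In cells with the transcripts of resting cells the Treg ratio was the higher, 0.73 (0.33 to 1.15) against 0.61 (0.19 to 1.04). In cycling cells it was the lower (0.30 against 0.92 in CD8 T cells), as in the remaining cells (0.33 against 0.79).

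*Jun* (chr4:95049034-95052222, minus strand) encodes the Jun subunit, which can bind DNA as a dimer with itself or with Fos. Its level was 196 CPM in wild-type and 346 CPM in knockout CD8 T cells, and 224 and 302 CPM in Tregs. Both knockout pools stood above both wild-type pools. The log2 ratio was 0.82 (0.72 to 0.91) in CD8 T cells, the highest of the 10, and 0.43 (0.34 to 0.51) in Tregs.

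*Junb* (chr8:84974484-84978718, minus strand), a Jun-family subunit that in T cells pairs with BATF as well as with Fos proteins, differed between the wild-type lineages. Its level was 384 CPM in wild-type CD8 T cells and 659 CPM in wild-type Tregs, and 635 and 678 CPM in the knockout. The wild-type CD8 T cells were the low pool, and the other 3 lay close to each other. Knockout over wild type, the log2 ratio was 0.73 (0.66 to 0.79) in CD8 T cells and 0.042 (-0.011 to 0.095) in Tregs, the second interval including 0.

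*Jund* (chr8:70698949-70700616, plus strand), the Jun-family subunit that many cells make without a stimulus, went in opposite directions. Its level was 78.1 CPM in wild-type and 89.9 CPM in knockout CD8 T cells, and 101 and 86.6 CPM in Tregs. In the knockout the 2 lineages met. The log2 ratio was 0.20 (0.040 to 0.37) in CD8 T cells and -0.22 (-0.37 to -0.078) in Tregs. The CD8 direction did not hold under every setting: the ratio was -0.065 with equal weight per cell, -0.28 in thinned cells, where it was below the -0.15 of Tregs, and -0.040 without cycling cells.

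*Egr1* encodes a zinc finger transcription factor induced by growth factor and antigen receptor signals. Its level was 24.5 CPM in wild-type and 30.5 CPM in knockout CD8 T cells, and 34.6 and 32.6 CPM in Tregs. These rest on 172 to 308 UMIs per pool, the fewest of the members in 3 of the 4 pools. On the log2 scale the ratio was 0.31 (0.025 to 0.60) in CD8 T cells and -0.087 (-0.33 to 0.15) in Tregs, and in thinned CD8 T cells it was -0.14.

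*Dusp1* (chr17:26505590-26562128, minus strand) encodes a phosphatase that switches MAPK signaling off again. Its level was 61.2 CPM in wild-type and 95.6 CPM in knockout CD8 T cells, and 195 and 170 CPM in Tregs. Tregs stood above CD8 T cells in both libraries, and the gap narrowed from both sides in the knockout. The log2 ratio was 0.64 (0.47 to 0.82) in CD8 T cells and -0.20 (-0.31 to -0.10) in Tregs, so that the difference between lineages, 0.85 (0.65 to 1.05), was the widest of the members.

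*Ier2* (chr8:84661331-84662852, minus strand), an immediate early gene whose product acts in the nucleus, was the same in both Treg pools. Its level was 152 CPM in wild-type and 223 CPM in knockout CD8 T cells, and 124 CPM in each of the 2 Treg pools. CD8 T cells stood above Tregs in both libraries. Knockout over wild type, the log2 ratio was 0.56 (0.45 to 0.67) in CD8 T cells and 0.0056 (-0.12 to 0.13) in Tregs.

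*Zfp36* (chr7:28376784-28380253, minus strand) encodes tristetraprolin, which binds AU-rich transcripts, those of cytokines among them, and brings about their decay. Its level was 65.0 CPM in wild-type and 105 CPM in knockout CD8 T cells, and 108 and 119 CPM in Tregs. The wild-type CD8 T cells were again the low pool. The log2 ratio was 0.69 (0.52 to 0.86) in CD8 T cells and 0.14 (0.012 to 0.27) in Tregs.

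*Btg2* (chr1:134075170-134079120, minus strand) encodes an antiproliferative protein that promotes removal of the poly(A) tail. Its level was 129 CPM in wild-type and 198 CPM in knockout CD8 T cells, and 158 and 190 CPM in Tregs. Both knockout pools stood above both wild-type pools, as for *Jun*. On the log2 scale the ratio was 0.62 (0.50 to 0.74) in CD8 T cells and 0.27 (0.16 to 0.37) in Tregs.

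**Figure D2:**
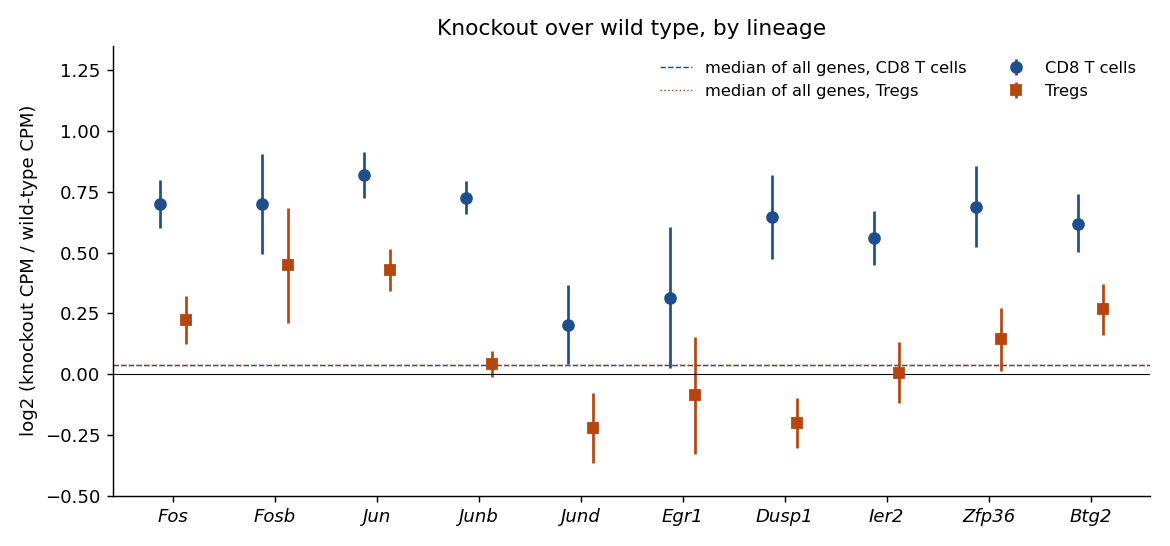
Log2 ratio of knockout over wild-type CPM for each member, in CD8 T cells (circles) and Tregs (squares), with exact conditional 95% intervals for counting error, and dashed and dotted lines at the median of all genes (0.036 and 0.038). Every circle is above the square of the same gene, and the intervals overlap for *Fosb* and *Egr1* only.

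Pooled over all cells of a lineage, the 2 lineages of the libraries did not shift alike. Among the 4761 genes with at least 400 UMIs in each lineage, a set that all 10 members belong to, the interval of the CD8 ratio lay above 0 for all 10 members (33% of these genes) and below 0 for none (30.9%). In Tregs it lay above 0 for 5 members (32.3%) and below 0 for 2 (18.3%). *Fos*, *Fosb*, *Jun*, *Zfp36* and *Btg2* were higher in both lineages by this measure (22.8% of these genes), and *Jund* and *Dusp1* were higher in CD8 T cells and lower in Tregs (4.1%). The CD8 ratio exceeded the Treg ratio for all 10 members, and the interval of that difference lay above 0 for 9 of them, all but *Fosb*, against 15.3% of these genes. In thinned cells the difference of *Jund* was -0.13 and without cycling cells that of *Fosb* was -0.015, and under the other 13 alternatives all 10 were above 0. The differences ran from 0.25 to 0.85 with a median of 0.45, beside -0.012 over the 10726 genes that had 20 or more UMIs in both lineages. Over the other settings the median difference of the members stayed between 0.24 and 0.51. Compared inside cell states, an alternative chosen after seeing the data, the differences ran from 0.082 to 0.53 with a median of 0.29. There *Jun* was nearly alike in the lineages, at 0.53 in CD8 T cells and 0.45 in Tregs. *Fos* (0.38 and 0.26) and *Btg2* (0.43 and 0.27) were also closer than when pooled, and *Dusp1* was furthest apart (0.38 and -0.15). The values cover counting error in 2 libraries, and a difference between the lineages of another pool of mice was not measured.

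Both lineages of a library were sorted from the same pool of islet cells, so the members were also compared between them. In the wild type 3 members were at least 1.5-fold lower in CD8 T cells than in Tregs (*Dusp1*, *Junb* and *Zfp36*, against 19.4% of all genes) and none was 1.5-fold higher (8.78%). The log2 ratios of CD8 T cells over Tregs were -1.67 (-1.83 to -1.52) for *Dusp1*, -0.78 (-0.85 to -0.71) for *Junb* and -0.73 (-0.89 to -0.57) for *Zfp36*. In the knockout *Dusp1* alone was 1.5-fold lower in CD8 T cells (17.5% of all genes), at -0.83 (-0.96 to -0.70), and *Fosb* and *Ier2* were 1.5-fold higher (8.39%), at 0.77 (0.57 to 0.97) and 0.85 (0.74 to 0.96). *Junb* and *Zfp36* were at -0.096 (-0.15 to -0.040) and -0.18 (-0.32 to -0.049) in the knockout. *Fos* changed from no measurable difference between the wild-type lineages, -0.037 (-0.14 to 0.069), to 0.44 (0.35 to 0.53) in the knockout.

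Cells were divided by genes other than the members into cycling-marked (at least 3 UMIs of *Mki67*, *Top2a*, *Birc5*, *Cdk1* and *Ube2c*), resting-marked (of the others, at least 2 UMIs of *Ccr7*, *Lef1* and *S1pr1*) and the rest. *Fos* was lowest in the cycling cells: in wild-type CD8 T cells it was 78.9 CPM there, 278 CPM in the resting-marked cells and 220.2 CPM in the rest. In knockout CD8 T cells these were 136, 367 and 256 CPM, in the same order and each higher. The median log2 ratio of the members in CD8 T cells was 0.64 in cycling-marked, 0.44 in resting-marked and 0.34 in the remaining cells, beside 0.046, 0.068 and 0.075 over all genes. In Tregs it was 0.20, 0.18 and 0.092, beside 0.036, 0.069 and 0.039. Within each CD8 state the median was thus below the pooled 0.67 and above that of all genes.

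The members differed in the states that carried the difference. *Fos* and *Jun* had intervals above 0 in all 3 states of both lineages, *Jun* with log2 ratios of 0.59, 0.56 and 0.47 in cycling-marked, resting-marked and remaining CD8 T cells and 0.58, 0.54 and 0.34 in Tregs. Among CD8 T cells *Fosb* was highest in those neither cycling- nor resting-marked, where it was 64.0 CPM in the wild type and 110.5 CPM in the knockout, a log2 ratio of 0.79 (0.50 to 1.08). For *Jund* the CD8 interval lay above 0 in the 182 wild-type and 97 knockout cycling-marked cells, at 0.77 (0.43 to 1.11), while the ratio was 0.073 (-0.22 to 0.38) in resting-marked cells and 0.055 (-0.20 to 0.31) in the rest. In cycling-marked Tregs *Jund* was lower in the knockout, at -0.65 (-1.0 to -0.31). *Dusp1* differed in the resting-marked CD8 T cells, 76.0 against 118 CPM, a log2 ratio of 0.64 (0.35 to 0.93), and its intervals in the other 2 CD8 states included 0.

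**Figure D3:**
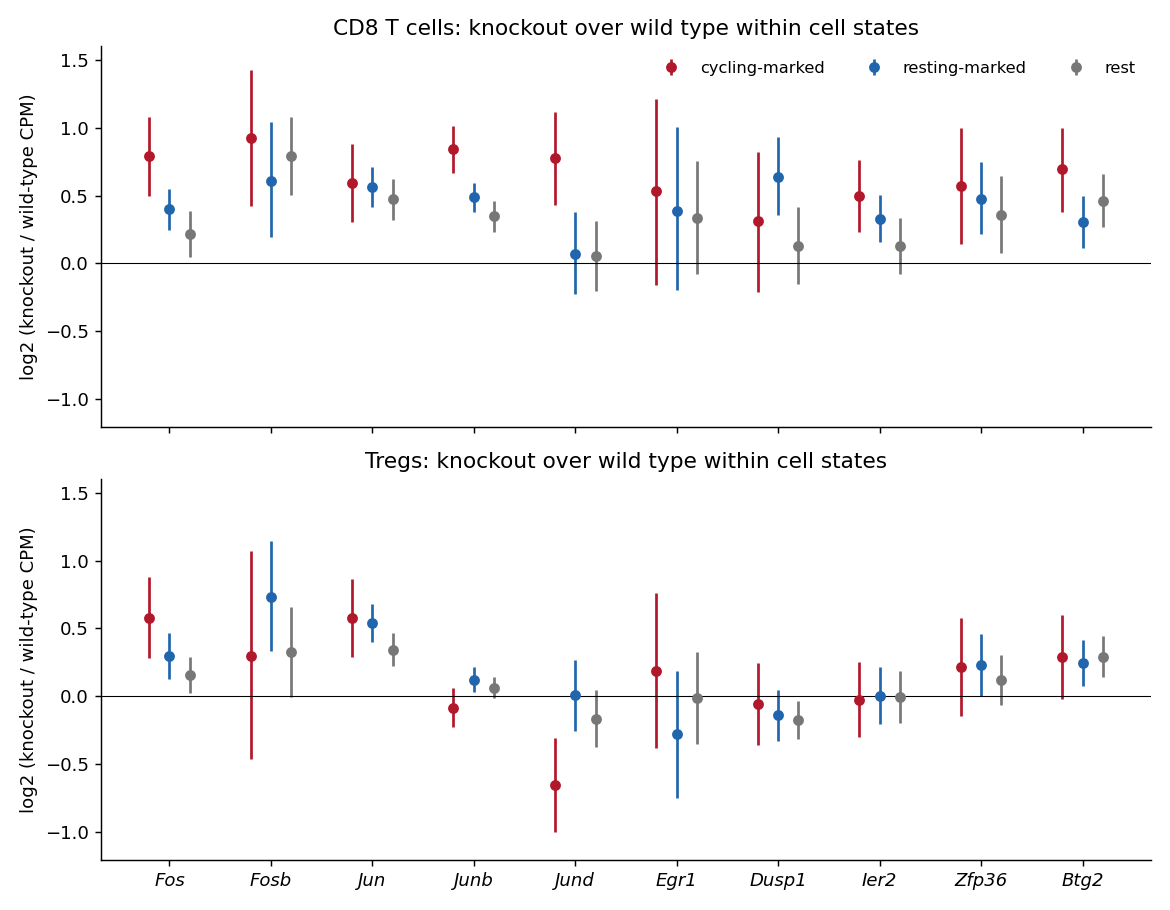
Log2 ratio of knockout over wild-type CPM of each member within cycling-marked, resting-marked and remaining cells, for CD8 T cells (top) and Tregs (bottom), with exact 95% counting intervals. All CD8 points lie above 0, from 0.055 for *Jund* in the remaining cells to 0.92 for *Fosb* in cycling-marked cells, while Treg points lie on both sides.

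Set against the remaining cells of the same library, resting-marked CD8 T cells divided the AP-1 genes in the same way in both genotypes. *Fos* was higher in resting-marked cells, with log2 ratios of 0.34 (0.16 to 0.51) in the wild type and 0.52 (0.38 to 0.66) in the knockout. *Jun*, *Junb* and *Ier2* were higher in both libraries too, by 0.20 to 0.75, and *Zfp36* was at 0.30 (-0.018 to 0.61) in the wild type and 0.41 (0.18 to 0.65) in the knockout. *Fosb*, *Jund* and *Egr1* were lower: *Egr1* at -0.93 (-1.56 to -0.34) and -0.88 (-1.29 to -0.47), *Fosb* at -0.83 and -1.01, and *Jund* at -0.41 and -0.39, with intervals below 0 in both libraries. The median over all genes was -0.17 and -0.15. In Tregs the division was weaker, and only *Ier2* and *Btg2* had intervals above 0 in both libraries and only *Dusp1* below 0 in both, at -0.38 and -0.34.

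**Figure D4:**
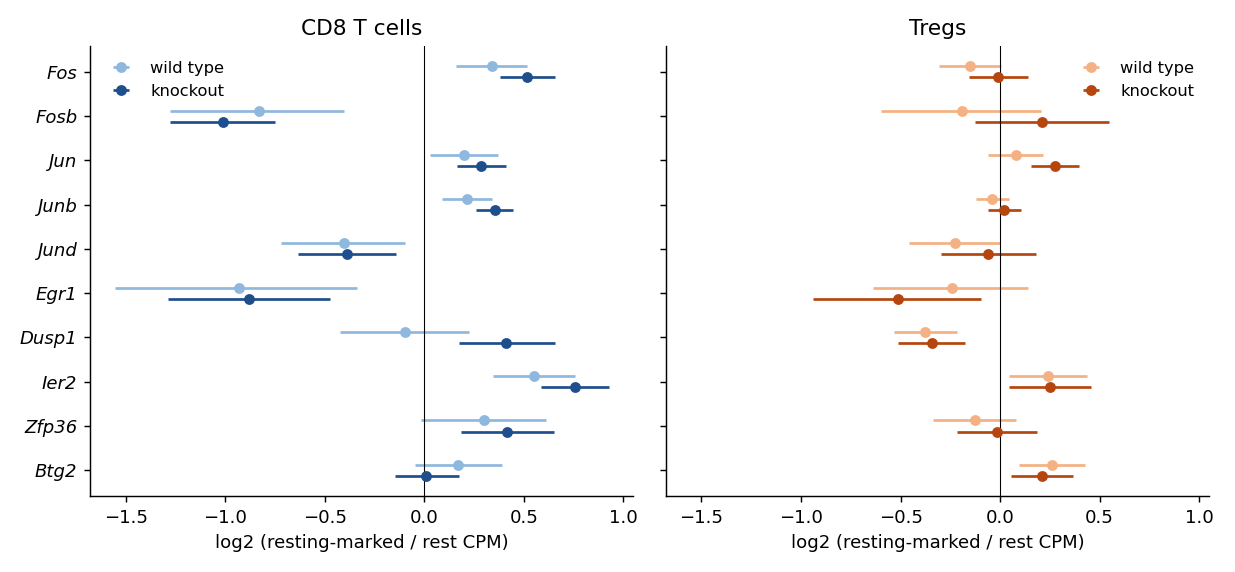
Log2 ratio of CPM in resting-marked cells over the remaining cells of the same lineage and library, for wild type (light) and knockout (dark), with exact 95% counting intervals. In CD8 T cells *Fosb*, *Jund* and *Egr1* lie left of 0 in both libraries and *Fos*, *Jun*, *Junb*, *Ier2* and *Zfp36* right of it.

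The members differed widely in the share of cells in which they were detected. With each cell thinned to 2000 UMIs, *Junb* was detected in 52.6% of wild-type and 64.9% of knockout CD8 T cells, and the Treg shares were 66.3% and 67.0% (82.7, 87.5, 84.5 and 85.5% of cells before thinning). *Fos* was detected in 30.5% (27.5 to 33.7, exact binomial) and 40.5% (37.7 to 43.4) of thinned CD8 T cells, with Treg shares of 28.7% and 34.7%. Before thinning these were 57.2, 66.5, 48.9 and 54.0%. *Jun* went from 32.0% to 42.8% in thinned CD8 T cells and from 33.6% to 43.0% in Tregs. *Dusp1* was detected in 14.1% and 17.1% of thinned CD8 T cells against 33.7% and 31.7% in Tregs. *Fosb* was found in 7.78% and 13.3% of thinned CD8 T cells and in 6.57% and 9.43% of thinned Tregs. For *Jund* (18.6% and 14.5%) and *Egr1* (5.84% and 5.24%) the thinned shares in CD8 T cells went against their CPM, and no order is read from them. Thinning left out 17 and 16 CD8 T cells and 76 and 55 Tregs, and no cell type that lacks these genes was in the sort to give a background share.

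Summed over the members, a thinned cell held a median of 3 UMIs in wild-type CD8 T cells and of 4 in each of the other 3 pools. None of the 10 was detected in 12.5% (10.4 to 14.8) of wild-type CD8 T cells, 6.76% (5.39 to 8.34) of knockout CD8 T cells, 7.99% of wild-type and 6.48% of knockout Tregs. At least 5 different members were detected in 8.92%, 16.1%, 14.0% and 16.6% of these pools. The 10% of cells with most member UMIs held 29.4% of them in wild-type and 25.4% in knockout CD8 T cells. Leaving out the 5% of cells richest in the members gave the same CD8 median of 0.67.

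**Figure D5:**
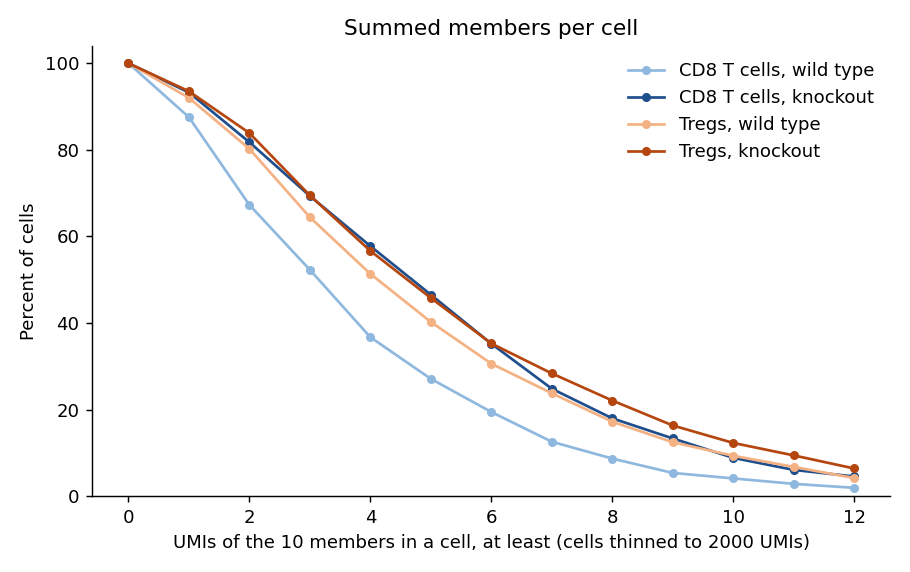
Percent of cells, thinned to 2000 UMIs, that held at least a given number of UMIs of the 10 members together, for the 4 pools. The curve of wild-type CD8 T cells lies below the others: 27.1% of these cells held 5 or more, against 46.5% of knockout CD8 T cells and 40.2% and 45.8% of wild-type and knockout Tregs.

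Over thinned cells of 1 pool the members varied together only weakly, as sparse counts allow. The highest Pearson correlation of log counts was that of *Fos* and *Jun*, with a median of 0.19 over the 4 pools (0.16 to 0.24), followed by *Fos* and *Fosb* at 0.16 and *Jun* and *Junb* at 0.16. The lowest were those of *Egr1* with *Fos* (-0.018), *Dusp1* (-0.014), *Fosb* (-0.013) and *Jun* (0.0046), while *Egr1* was at 0.052 with *Junb* and 0.039 with *Ier2*. Among 6421 genes with at least 100 UMIs in every pool, those most like the summed members over cells were *Malat1* (median r 0.35), *Btg1* (0.28), *Rps27* (0.26), *Klf6* (0.23) and *Cd69* (0.23). The cells of a pool share a library and a fixed depth, and these values are descriptive.

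*Malat1*, a long noncoding RNA kept in the nucleus, was, like 8 of the members, lowest in wild-type CD8 T cells. Its level was 16377 CPM in wild-type and 21588 CPM in knockout CD8 T cells, and 24416 and 25650 CPM in Tregs. In comparisons chosen after seeing the data, with CD8 T cells compared inside quartiles of their *Malat1* share, the median log2 ratio of the members was 0.39 and none was 1.5-fold higher. Inside quartiles of UMIs per cell it was 0.45, with 1 member 1.5-fold higher. The median mitochondrial share was 2.01% and 1.87% in CD8 T cells and 1.63% and 1.55% in Tregs.

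Other genes that respond to digestion and stress were also mostly higher in knockout CD8 T cells, few of them by 1.5-fold. Of 19 such genes outside the members, 18 had at least 20 UMIs in CD8 T cells, with a median log2 ratio of 0.37. In the knockout 4 were 1.5-fold higher and none lower, against 13.7% and 8.2% of all genes. The interval of the CD8 ratio lay above 0 for 12 of the 18 and below 0 for 1. Among genes with at least 400 UMIs in each lineage, which not all of these reach, the shares were 33% and 30.9%. In Tregs none of 19 was 1.5-fold higher and 1 was lower (6.93% and 3.62% of all genes), with a median of 0.14. The Treg interval lay above 0 for 9 and below 0 for 3 (32.3% and 18.3% of the deeper genes). Their part in the members' difference was not tested. The highest in CD8 T cells were *Ppp1r15a*, which restarts translation after stress, at 1.25 (57.9 against 137 CPM), and *Nfkbia*, the inhibitor of NF-κB, at 0.64 (212 against 330.3 CPM). The lowest were the chaperone genes *Hsp90aa1* (-0.088) and *Hsp90ab1* (-0.010). In Tregs *Dnaja1* (0.47) and *Ppp1r15a* (0.43) were highest, and *Hspb1* (-1.65, 41 and 12 UMIs) and *Hspa1a* (-0.39) lowest. *Hspa1a*, a chaperone gene that heat and stress induce, was thus higher in knockout CD8 T cells, at 0.25 (0.13 to 0.37), and lower in knockout Tregs. *Hspa1b* of the same list did not divide in this way, at 0.64 (0.35 to 0.92) in CD8 T cells and 0.36 (-0.034 to 0.75) in Tregs.

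Among AP-1 relatives the direction was mixed. *Batf*, whose protein pairs with JunB in activated T cells, was lower in the knockout in both lineages, at 275 against 180 CPM in CD8 T cells (-0.62, -0.72 to -0.52) and 367 against 268 CPM in Tregs (-0.45, -0.53 to -0.37), and was named after its values were seen. *Fosl2* was higher in CD8 T cells, at 0.69 (0.21 to 1.19), and lower in Tregs, at -0.64 (-0.97 to -0.32). *Mafk*, a small Maf protein, was at 1.0 in CD8 T cells and 0.14 in Tregs. *Fosl1* had 2 UMIs in wild-type and 18 in knockout CD8 T cells (log2 ratio 3.0, 0.93 to 6.15). *Batf3* (-0.65) and *Jdp2* (-0.62) were lowest in CD8 T cells on 18 to 30 UMIs per pool, and *Batf2* (-1.51, 28 and 9 UMIs) was lowest and *Maff* (0.41) highest in Tregs. Of 7 relatives with at least 20 UMIs 3 were 1.5-fold higher and 3 lower in CD8 T cells, against 13.7% and 8.2% of all genes. Of 6 in Tregs none was higher and 2 were lower, against 6.93% and 3.62%.

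Of 14 relatives of the other members with at least 20 UMIs, 5 were 1.5-fold higher and 1 lower in knockout CD8 T cells (13.7% and 8.2% of all genes). In knockout Tregs 3 were higher and 1 lower (6.93% and 3.62%), and the medians were 0.020 in CD8 T cells and 0.021 in Tregs. The antiproliferative genes *Btg3* (1.25 in CD8 T cells, 0.81 in Tregs) and *Tob1* (1.22 and 0.65), of the same protein family as *Btg2*, were the highest in CD8 T cells and higher in both lineages. *Dusp6* was 0.71 in Tregs. *Ier5l* (-0.89 and -1.30) was lowest in both lineages on 14 to 51 UMIs, *Ier3* was -0.54 in CD8 T cells and *Dusp2* -0.45 in Tregs.

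Transcripts of the kinases and factors that act upstream showed little of the pattern. None of 13 was 1.5-fold higher in either lineage (13.7% of all genes in CD8 T cells, 6.93% in Tregs). In each lineage 1 was lower (8.2% and 3.62%), with medians of -0.072 in CD8 T cells and -0.027 in Tregs. In CD8 T cells *Elk4* (0.55) and *Mapk8* (0.42) were highest and *Mapk3*, which encodes ERK1 (-0.60), and *Srf*, which encodes serum response factor (-0.49), lowest. In Tregs *Mapk9* (0.32) and *Srf* (0.27) were highest and *Elk1* (-0.70) and *Mapk3* (-0.44) lowest.

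Of 14 genes that the antigen receptor induces, 3 were 1.5-fold higher and 1 lower in knockout CD8 T cells (13.7% and 8.2% of all genes). In Tregs none passed 1.5-fold in either direction (6.93% and 3.62%), and the medians were 0.14 in CD8 T cells and -0.16 in Tregs. *Cd69*, an early surface marker of activation that also holds cells in tissue, was highest in both lineages, at 181 against 363 CPM in CD8 T cells (1.01) and 162 against 224 CPM in Tregs (0.47). *Myc* was 0.73 in CD8 T cells and *Irf4* 0.24 in Tregs. *Nr4a1*, a reporter of receptor signal strength, was -0.14 (-0.41 to 0.13) in CD8 T cells and -0.57 (-0.73 to -0.42) in Tregs. *Tnfrsf4* (-0.62) and *Irf8* (-0.48) were lowest in CD8 T cells, and *Nfkb2* (-0.58) lowest in Tregs.

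Of the lists that mark cell state, the resting genes were higher in knockout CD8 T cells, as the members were, and the proliferation genes lower. The 6 resting T cell genes had a median of 1.20 in CD8 T cells, 5 of them 1.5-fold higher (13.7% of all genes). In Tregs their median was 0.37, with 2 of them 1.5-fold higher (6.93%). The 5 proliferation genes had a median of -1.22 in CD8 T cells, 3 of them 1.5-fold lower (8.2% of all genes). In Tregs theirs was -0.019, with 2 of them 1.5-fold higher (6.93%). Markers of exocrine and endocrine cells were at low levels. The 9 acinar markers summed to 70.1 CPM in wild-type and 33.9 CPM in knockout CD8 T cells, of which *Prss2* was 55.3 and 13.3 CPM. The sum followed *Prss2*: of 4 acinar markers with at least 20 UMIs, *Prss2* and *Cela1* were 1.5-fold lower (8.2% of all genes). *Ctrb1* (8 and 38 UMIs) and *Try5* (4 and 28 UMIs) were 1.5-fold higher (13.7%). In the wild type *Prss2* had 388 UMIs in CD8 T cells and 46 in Tregs, and *Cela1* 78 and 55. *Ctrb1* had 8 and 42 there and *Try5* 4 and 15. The CD8 sum is therefore no measure of acinar transcripts as a set, and which cells made *Prss2* was not tested. In Tregs the sums were 23.5 and 41.2 CPM, with 7 of 9 markers 1.5-fold higher (6.93%) and none lower. The 6 endocrine markers summed to between 10.9 and 23.2 CPM. Of 6 myeloid markers *Cst3* held most UMIs, with sums of 145 to 306 CPM, and *Csf1r* and *Adgre1* had at most 1 UMI in any pool. The 3 B cell markers summed to 2.14 to 8.60 CPM. The part of these markers of other cell types in the result was not tested.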

How the data were processed

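Per the labels and the study's methods, islet leukocytes were sorted into CD8 T cells and GFP+ CD4 Tregs and sequenced with the Chromium Single Cell 3′ version 2 kit. The authors deposited raw UMI counts per gene and barcode from Cell Ranger 7.0.0 (genome mm10, per the submitters' processing notes), not normalized. Whether intron reads were counted is not given in the sources used here, and it affects nuclear transcripts most. The members and lists were chosen with earlier results of these data known.

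Cells were kept and assigned to lineages as the report states, in Python 3.11.15 with numpy 2.4.6 and scipy 1.17.1. UMIs were summed per library and lineage (7014920 and 7908290 in CD8 T cells, 8888924 and 8152788 in Tregs) and scaled to CPM, with exact Poisson intervals around each value. Log2 ratios have exact conditional intervals, differences of log2 ratios Wald intervals, and shares exact binomial intervals, all at 95% and for counting error only. Genes needed 20 UMIs over both libraries, and a count of 0 was replaced by 0.5. PCR duplicates were removed by UMI. The interval and thinning steps were tested on simulated data. TMM factors came from edgeR 4.0.16 in R 4.3.3. Named genes were all 10 members, the 2 highest and 2 lowest of each other list in each lineage (ranges and leading genes only for cell state and cell type lists), and the 5 genes most correlated with the members. Some genes of the planned lists, 1 of them part of the planned rule for resting-marked cells, are not reported here, and the lists and the rule were applied without them after the data had been examined. *Mrtfa*, *Itgam* and *Igkc* of the lists were not matched by symbol. The T cell receptor files and other libraries of the study were not analysed here. Figures were drawn with matplotlib 3.10.9.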

Additional observations from a re-analysis of the deposited data

Results flagged for a closer look

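*Jund* and *Dusp1* were picked out because the knockout differed from the wild type in opposite directions in the 2 lineages, higher in CD8 T cells and lower in Tregs, each beyond counting error. The CD8 log2 ratio exceeded the Treg log2 ratio by 0.43 for *Jund* and by 0.85 for *Dusp1*. With 1 library per genotype, the difference was not tested across mice. For *Jund* the CD8 direction turned in 3 of the 15 alternatives, in 1 of which, thinned cells, the difference itself was -0.13, while that of *Dusp1* held in all of them.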

How the results depend on the processing

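With 1 library per genotype, every value is limited to 2 pools of mice, and mouse, batch and genotype cannot be told apart. No paired analysis was possible because the groups hold 1 library each. In 15 alternatives the median log2 ratio of the members in CD8 T cells stayed between 0.39 and 0.70. It was set against the median of the members' lower interval bounds, which is a cut and not a counting interval of the median itself. It fell below this cut with equal weight per cell (0.49, with 0 members 1.5-fold higher in place of 7) and without cycling cells (0.44, 0 members). In alternatives chosen after seeing the data it also did so stratified by cell state (0.41, 1 member), by *Malat1* share (0.39, 0 members) and by UMIs per cell (0.45, 1 member). The count of 7 became 3 in thinned cells and 4 without resting-marked cells, and 0 with 2-fold in place of 1.5-fold. In Tregs the median was 0.038 (without resting-marked cells) to 0.14, with no member 1.5-fold higher or lower. The sign of the lowest value rests on the genes of the resting rule: with the rule as planned it was just below 0, and the CD8 count without these cells was also lower. The median difference between lineages, 0.45 as reported, was 0.28 in thinned cells, 0.24 without cycling cells, 0.29 stratified by state and 0.27 by *Malat1* share. These lay below the median of the members' lower interval bounds for the difference, while the 0.31 found by UMIs per cell did not. Of single members, *Jund* in CD8 T cells turned to -0.065 with equal weight per cell, -0.28 in thinned cells and -0.040 without cycling cells, and *Egr1* to -0.14 in thinned cells. Of the 150 member values in each lineage, 97 in CD8 T cells and 145 in Tregs stayed inside the counting interval of the value reported.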
